A study of Homo sapiens with 6 samples.

Results

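The enzymes that add methyl groups to lysine or arginine in proteins, and those that take them off lysine, were examined in oral squamous cell carcinoma (OSCC) cells after knockdown of the long noncoding RNA DLEU1. Probes outside the array's controls were taken by their gene name. The names were those of the SMYD, SETD, PRMT and KDM families and a fixed set of further names, among them the EZH, SUV39H, SUV420H, EHMT, MLL and WHSC1 genes. In all, 57 of the 36337 gene names on the array qualified, with 109 probes, and levels of 56 genes and 108 probes are given here. HSC-3, KON and Ca9-22, which are established OSCC cell lines, were each transfected with siDLEU1-2, a small interfering RNA (siRNA) against DLEU1, or with a control siRNA (siCtrl). RNA was collected 72 h later, and 100 ng of it was amplified and labeled. The product was hybridized to 1 one-color Agilent array per line and siRNA, so that 6 arrays were made. No genetic change was introduced into any of the lines, and every array comes from transfected cells. With 1 array for each line and siRNA, only the 3 lines serve as replicates, a change in any single line comes without an error, and on these arrays the effect of DLEU1 loss cannot be told apart from other effects of the 1 siRNA sequence used.

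Most lysine methyltransferases carry a catalytic SET domain and write marks on histone tails whose meaning depends on the residue. Methylation of H3K4 marks promoters and enhancers, that of H3K36 and H3K79 marks transcribed gene bodies, and that of H3K9, H3K27 and H4K20 is linked to silent or compacted chromatin. Arginine methyltransferases (PRMT) act on histones as well as on splicing and signaling proteins, and lysine methylation is reversed by the flavin-dependent enzymes KDM1A and KDM1B or by demethylases with a Jumonji C (JmjC) domain. The array uses old names for 11 of the genes. By transcript accession, MLL, MLL2, MLL3, MLL4 and MLL5 are now KMT2A, KMT2D, KMT2C, KMT2B and KMT2E, WHSC1 and WHSC1L1 are NSD2 and NSD3, SETD8, SUV420H1 and SUV420H2 are KMT5A, KMT5B and KMT5C, and PRMT10 is PRMT9.

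The sequences below are shown because 3 of the member probes that fell, among them the lowest that was well above background on all arrays, hold a stretch complementary to the seed of the siRNA used. The seed, bases 2 to 8 of the antisense strand, is in capitals in the first line, and capitals in the probe stretches mark the bases complementary to it (7 bases, GCACTTA, for SMYD2 and WHSC1, and 6 bases, CACTTA, which pair with bases 2 to 7, for SETD6). Each stretch is 30 of the 60 bases of a probe, 5′ to 3′ in the sense of the transcript.
siDLEU1-2 antisense strand: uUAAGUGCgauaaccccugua
SMYD2, chr1:214510246-214510305, bases 1 to 30: cttcttGCACTTAaacactgcacatgccgt
WHSC1, chr4:1944069-1944128, bases 31 to 60: ttgaacccagctgctctgtactGCACTTAg
SETD6, chr16:58553249-58553308, bases 31 to 60: aagtctagtttgaggaagtCACTTAacctt
Coordinates are those of the array design on hg19, all 3 on the plus strand. The 7-base match was present in 2 of the 108 member probes (1.85%) and in 138 of all 50599 probes (0.273%). The 6-base match was present in 3 member probes (2.78%) and in 684 of all probes (1.35%). A match in a probe shows only that these letters lie in the 60 bases read, and whether the siRNA acted through them was not tested. For other member genes, no match says nothing about the rest of their transcripts.

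The DLEU1 probe itself had a log2 fold change (siDLEU1-2 over siCtrl within a line) of -4.10 (HSC-3), -3.63 (KON) and -3.44 (Ca9-22). On an array, 43.0% to 45.7% of the probes were well above background, and the 75th percentile of the background-subtracted signal lay between 200 and 257. Signals are given below as the processed signal over that percentile of the same array ("normalized signal"), so a value of 1 is the brightness that 75% of probes do not reach. All 5 squamous epithelium genes were measured above background in every line, against 1 of 6 fibroblast genes (COL1A1, mean log2 fold change 1.45), 2 of 5 leukocyte genes and 2 of 4 endothelial genes. Of these markers, KRT6A, SFN and CD68 fell and COL1A1 rose by the test used here, and their part in the results was not tested.

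Of the 108 member probes, 89, in 53 genes, were tested, because in every line 1 or both arrays read them well above background. KDM5A, PRMT8 and SMYD1, each read by a single probe, stayed at background on all 6 arrays. By limma, fitted with a term for the cell line (the block) and with Benjamini-Hochberg adjustment over all 19956 probes kept, 10 member probes in 7 genes were called lower (11.2% of 89) and none higher. Among all probes kept, 4.52% were called lower and 3.98% higher. The members were chosen with earlier results of these data known, and SMYD2, SETD6 and KDM1B are named in the study's text on these arrays. The member shares here and below thus describe the list and do not test it. Both KDM1B probes and 1 SUV39H1 probe among the 10 were dim (not well above background) on 2 or 3 siDLEU1-2 arrays and passed the filter through siCtrl, so their exact values rest partly on background. Of the 83 member probes well above background on all 6 arrays, 7 (8.43%) were called lower, against 4.04% of all such probes. Without adjustment, p was under 0.05 for 30 member probes that were lower (33.7%, against 14.9% of all probes kept) and 4 that were higher (4.49%, against 14.6%). By size alone, the measured values of 5 member probes were over 2-fold lower in all 3 lines (5.62%, against 2.08% of all probes kept), and none was over 2-fold higher (2.08% of all probes kept). For 2 of these 5 the siDLEU1-2 signal was dim on every array. The remaining 3 (SMYD2, WHSC1 and SETD6) were well above background on all 6. They are 3.61% of the 83 such member probes, against 1.6% of all such probes. The mean log2 fold change over the 3 lines had a median of -0.22 across the member probes and 0.01 across all probes kept. The member median was close to this in each line, at -0.20 (HSC-3), -0.22 (KON) and -0.27 (Ca9-22). In all 3 lines 43 member probes (48.3%) were lower and 10 (11.2%) were higher, and the other 36 were of mixed sign, while 26.7% of all probes kept were lower in all lines and 26.9% higher. When a line was left out, 0 (without HSC-3), 0 (without KON) and 3 (without Ca9-22; SMYD2, 1 WHSC1 and 1 KDM1B probe) of the 10 were called, and without the block 0 were. Over all probes kept, the calls lower also dropped, from 902 to 0, 0 and 117. The fold changes of SMYD2 (-2.33, -2.27 and -2.37) and SETD6 (-1.34, -1.27 and -1.36), the steadiest of the 10 between lines, stayed close to their means over 3 lines. Others of the 10 differed more between lines, with an SD of 0.58 and 0.51 for the called WHSC1 probes and 0.39 for PRMT6.

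**Figure D1:**
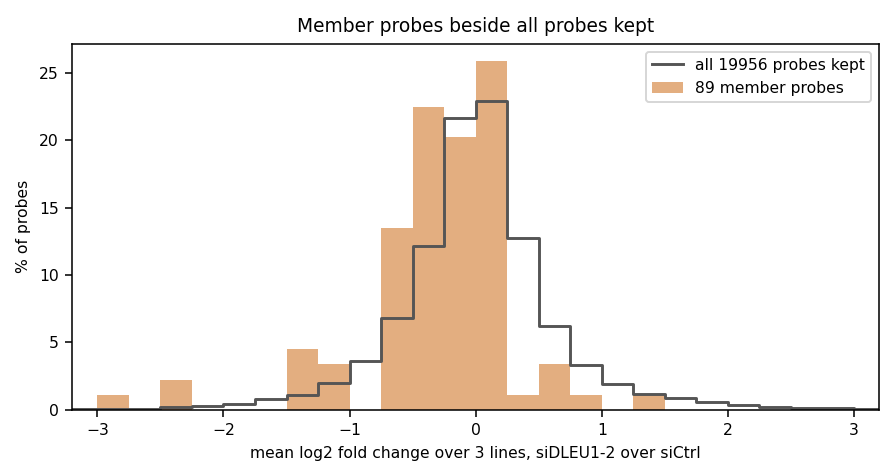
Mean log2 fold change over the 3 lines (x axis) against the percent of probes in each bin (y axis), for the 89 member probes (bars) and all 19956 probes kept (line). The bars lie further to the left than the line, with medians of -0.22 and 0.01, and the lowest member is at -2.76 and the highest at 1.50.

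**Figure D2:**
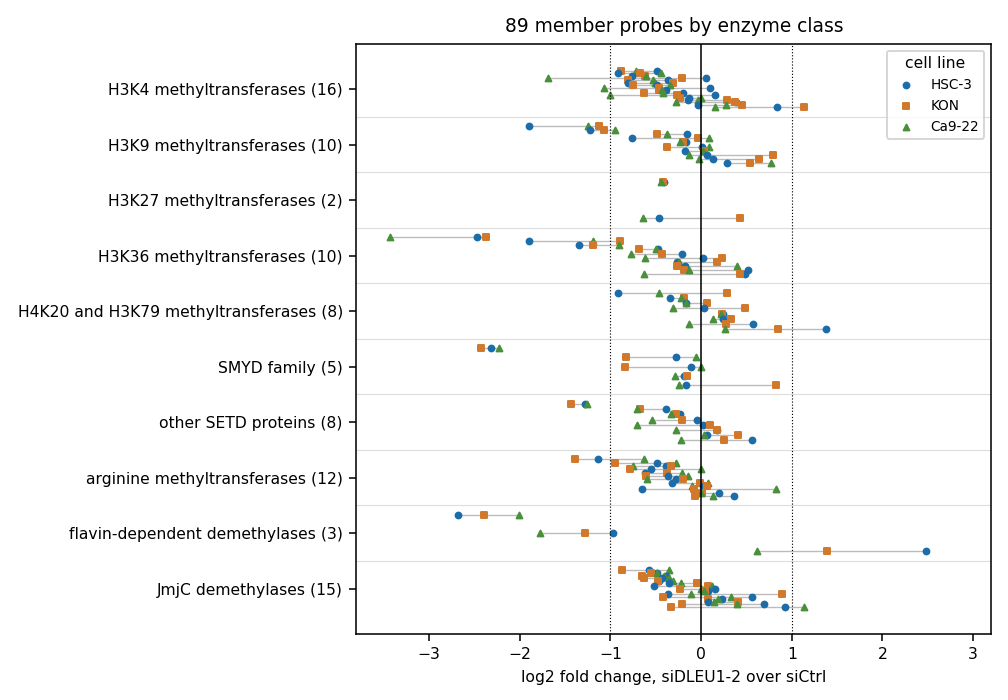
Log2 fold change of siDLEU1-2 over siCtrl (x axis) for each of the 89 member probes in each cell line (blue circle HSC-3, orange square KON, green triangle Ca9-22), grouped by enzyme class with the number of probes in brackets. Gray lines join the 3 lines of a probe and dotted lines mark 2-fold. The probes left of 2-fold in all lines lie in the H3K9, H3K36, SMYD, other SETD and flavin-dependent classes, and no probe lies right of it in all lines. Those of the H3K9 and flavin-dependent classes were dim after siDLEU1-2, and only the bounds given in the text hold for them.

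SMYD2, a lysine methyltransferase that acts on histone H3 and on proteins such as p53, fell to a like extent in all 3 lines. Its 1 probe, for NM_020197 on chromosome 1, had a normalized signal that went from 16.7 on the siCtrl array to 3.34 on the siDLEU1-2 array of HSC-3, from 12.4 to 2.31 for KON, and from 5.74 to 1.23 for Ca9-22. Signals of further probes are given in the same way, from siCtrl to siDLEU1-2 and with the lines in this order. Every siCtrl array was brighter than every siDLEU1-2 array, although the lines differed in level. The log2 fold changes were -2.32, -2.43 and -2.23, with a mean of -2.32 ± 0.10 (SD over 3 lines) and an adjusted p of 0.0227. The spread between lines was small beside the change. The other SMYD genes did not pass the test. SMYD3, which has been linked to cell growth in several cancers, was read by 2 probes at -0.39 and -0.32. Most of that came from KON, at -0.83 for both probes. SMYD5 stood at -0.21 ± 0.07. SMYD4 was the highest of the family at 0.14 ± 0.60, with 0.83 in KON and -0.16 and -0.24 in the other lines, a spread wider than its mean.

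SETD6 methylates the NF-kappaB subunit RELA and is the best known of the remaining SETD proteins. The probe printed above, assigned to NM_024860, went from 1.45 to 0.596 in HSC-3, from 2.79 to 1.03 in KON, and from 2.60 to 1.09 in Ca9-22, again without overlap between siRNAs. Its mean log2 fold change was -1.32 ± 0.10 (adjusted p = 0.0247). A second probe, 307 bases upstream and assigned to NM_001160305, went from 1.70 to 1.30, from 2.58 to 1.62 and from 1.99 to 1.22 in the same order. It was lower in every line, with a mean of -0.59 ± 0.18, but did not pass the test (adjusted p = 0.0778). The first probe was lower than the second by 0.89 (HSC-3), 0.76 (KON) and 0.55 (Ca9-22) on the log2 scale. Both probes thus had the same sign and differed in size in every line. Among SETD3, SETD4 and SETD5, no probe passed the test. The highest was a SETD4 probe at 0.20 ± 0.39. SETD5 had 2 probes kept, at -0.28 and -0.26.

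**Figure D3:**
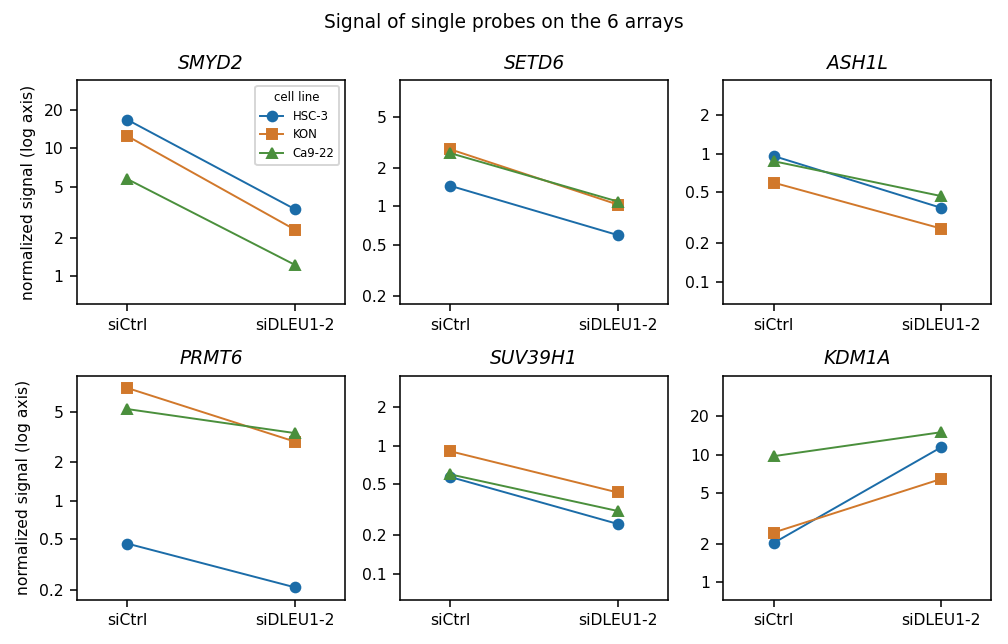
Normalized signal on a log axis (y) after siCtrl and siDLEU1-2 (x) in each line for 1 probe each of SMYD2, SETD6 (the probe called lower), ASH1L, PRMT6, SUV39H1 (the probe well above background on all arrays) and KDM1A. Lines join the 2 arrays of a cell line, and all panels span the same fold range. The first 5 fall in every cell line and KDM1A is higher in every cell line, with the widest gap in HSC-3.

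The H3K36 methyltransferases held the probe with the largest fall among members that no array read as dim, and the sharpest contrast between probes of 1 gene. WHSC1 (NSD2), which dimethylates H3K36 and is activated by translocation in multiple myeloma, was covered by 5 probes on chromosome 4. The 2 probes assigned to transcript NM_007331 lie 687 bases apart. The second of them, printed above, went from 0.958 to 0.172 in HSC-3, from 1.51 to 0.292 in KON, and from 2.74 to 0.255 in Ca9-22. Every siDLEU1-2 array was below the lowest siCtrl array, and the change averaged -2.76 ± 0.58 on the log2 scale (adjusted p = 0.0247). With normexp background correction it was smaller, at -1.78, and still called. The first, chr4:1943382-1943441, went from 1.02 to 0.275, from 1.43 to 0.767 and from 1.36 to 0.600. It fell by 1.32 ± 0.51 on the log2 scale (adjusted p = 0.0440) and holds neither of the seed matches. This probe passed 2-fold in HSC-3 and Ca9-22 and stood at -0.89 in KON.

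The remaining pair of measured WHSC1 probes lies 37.1 and 40.2 kb downstream of the first and is assigned to NM_133330. The probe at chr4:1980499-1980558 went from 0.595 to 0.831 in HSC-3, from 0.949 to 1.28 in KON, and from 1.31 to 0.845 in Ca9-22. The probe at chr4:1983546-1983605 went from 3.42 to 3.48, from 5.24 to 6.14 and from 6.07 to 3.96. Both were as high or higher after siDLEU1-2 in HSC-3 and KON and lower in Ca9-22, where they stood at -0.63 and -0.62. Their means were 0.10 ± 0.63 (adjusted p = 0.851) and -0.12 ± 0.44 (adjusted p = 0.747). Relative to the lowest NM_007331 probe, they were higher by 2.80 to 2.96 and by 2.50 to 2.81 on the log2 scale across lines. Against that 1 probe the difference was thus nearly the same in all 3 lines. Against the first NM_007331 probe it was not even. That probe stood at -1.89 in HSC-3, where the NM_133330 probes stood at 0.48 and 0.03. In Ca9-22 it stood at -1.19, beside their -0.63 and -0.62. The fifth probe, assigned to NM_133334, was not well above background on any array.

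**Figure D4:**
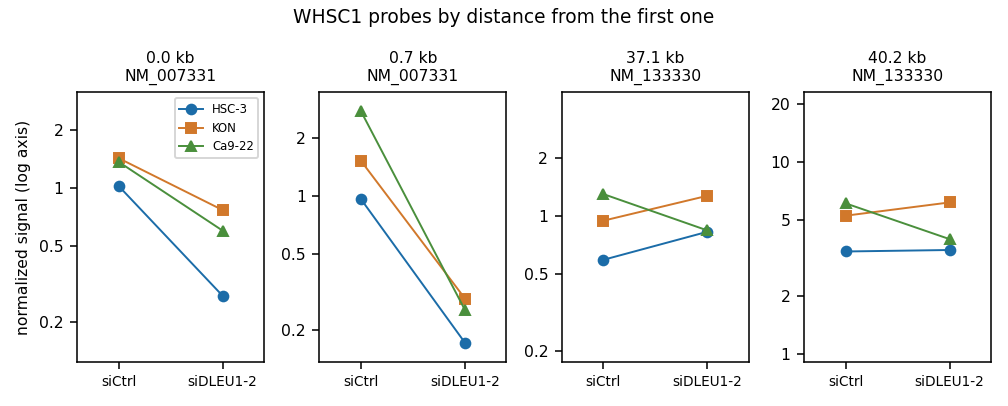
Normalized signal on a log axis (y) of the 4 measured WHSC1 probes after siCtrl and siDLEU1-2 (x), joined within each cell line, with the distance in kb from the first probe and the transcript of each above the panel. Each panel has its own level but the same fold range. The 2 NM_007331 probes fall in all lines. The 2 NM_133330 probes are higher in KON and lower in Ca9-22, and in HSC-3 the first is higher and the second nearly unchanged.

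Elsewhere among the H3K36 enzymes, ASH1L, a trithorax-group protein, fell. Its probe went from 0.964 to 0.379 in HSC-3, from 0.596 to 0.261 in KON, and from 0.877 to 0.469 in Ca9-22, with no overlap between the siRNAs. On the log2 scale its mean change was -1.15 ± 0.22 (adjusted p = 0.0305), and Ca9-22, at -0.90, did not reach 2-fold. With normexp the mean was -0.73 and still called. NSD1, the gene altered in Sotos syndrome, stood at -0.55 ± 0.12 and missed the threshold (adjusted p = 0.0788), which it passed with normexp background correction. SETD2, the enzyme for trimethylation of H3K36, stood at -0.11 ± 0.25. WHSC1L1 had 3 probes with means of -0.47, -0.02 and 0.07, none of which passed the test.

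Of the H3K9 methyltransferases, SUV39H1, which trimethylates H3K9 in pericentromeric heterochromatin, was lower at both of its probes. The probe at chrX:48566887-48566946 went from 0.572 to 0.246 in HSC-3, from 0.908 to 0.433 in KON, and from 0.599 to 0.310 in Ca9-22. All siCtrl arrays were above all siDLEU1-2 arrays, and the change averaged -1.08 ± 0.13 on the log2 scale (adjusted p = 0.0297), and -0.69 with normexp, still called. The other probe, chrX:48565909-48565968, read 0.126, 0.254 and 0.168 on the siCtrl arrays and was dim on each siDLEU1-2 array, that is, not well above background. For such a probe only a bound can be given, from the siCtrl mean over, on each siDLEU1-2 array, the lowest signal that counts as well above background or the probe's own signal where that is higher. It was at least 1.76-fold lower (adjusted p = 0.0315, from dim siDLEU1-2 values), and with normexp background correction it was no longer called (-0.30, adjusted p = 0.145). SUV39H2, the second enzyme of this kind, was higher in every line (3.05 to 3.72, 3.38 to 4.93 and 2.92 to 4.98), but its mean of 0.53 ± 0.24 did not pass the test (adjusted p = 0.109). The change of SUV39H1 thus had the opposite sign to that of SUV39H2 in all 3 lines. EHMT2 stood at -0.34 ± 0.17, and the 3 EHMT1 and 3 SETDB1 probes had means between -0.23 and 0.25.

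Among H3K4 methyltransferases no probe passed the test, although 9 of 16 were lower in all 3 lines and the class median was -0.45. MLL5, a SET-domain protein of the MLL group with little or no activity of its own, was read by 4 probes that were lower in each line, with means of -0.69, -0.57, -0.52 and -0.43 (the last dim on the Ca9-22 siDLEU1-2 array). The lowest of them went from 1.09 to 0.782, from 0.968 to 0.524 and from 0.689 to 0.420 (adjusted p = 0.0609). MLL, the gene rearranged in leukemias, had 3 probes at -0.68, -0.66 and -0.41, and the steadiest of them, at -0.66 ± 0.08, had an adjusted p of 0.054. MLL is the member that came closest to the threshold without passing it. MLL3, which mainly methylates enhancers, differed between lines. Its 3 probes lay between 0.06 and 0.16 in HSC-3, between -0.46 and -0.22 in KON, and in Ca9-22 they stood at -1.07, at the 2-fold mark, and, for the probe dim on that siDLEU1-2 array, at least 1.71-fold lower. The partly related MLL2 stood at 0.16 ± 0.38, MLL4 at -0.12 ± 0.12, and SETD1A and SETD1B at 0.23 and 0.04.

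SETD7, which monomethylates H3K4 and nonhistone proteins, was the only gene whose tested probes differed in sign and by more than 1 on the log2 scale besides WHSC1. The probe for NM_030648 went from 0.471 to 0.841 in HSC-3, from 0.615 to 1.35 in KON, and from 0.213 to 0.236 in Ca9-22, and was higher in every line. The probe assigned to BC066361, 26152 bases away, went from 0.563 to 0.321, from 1.95 to 1.58 and from 0.263 to 0.186, and was lower in every line. Their means were 0.71 ± 0.51 and -0.54 ± 0.25, and neither passed the test (adjusted p = 0.128 and 0.110). The gap between them was 1.64 (HSC-3), 1.44 (KON) and 0.66 (Ca9-22).

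The polycomb enzymes EZH1 and EZH2, which methylate H3K27, were each read by 1 probe. EZH1 went from 1.47 to 1.10, from 0.535 to 0.402 and from 0.990 to 0.730, an even fold change of -0.42 ± 0.02 that did not pass the test (adjusted p = 0.116). EZH2 changed with the line, at -0.46 (HSC-3), 0.43 (KON) and -0.64 (Ca9-22). A list of 10 proliferation genes had medians of -0.52, 0.54 and -0.25 in the same lines, and no probe of that list passed the test. Its part in the EZH2 values was not tested. Of the H4K20 and H3K79 enzymes none passed. DOT1L, the only known H3K79 methyltransferase and one without a SET domain, had its highest probe at 0.83 ± 0.56 (1.38, 0.85 and 0.26) and the other probes at 0.24 and 0.23. SUV420H2 was the lowest of this class at -0.36 ± 0.61, with values of -0.91, 0.29 and -0.46.

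PRMT6, which asymmetrically dimethylates arginine, including H3R2, was the 1 arginine methyltransferase called lower. Its probe is spotted 10 times on each array and went from 0.465 to 0.212 in HSC-3, from 7.64 to 2.91 in KON, and from 5.23 to 3.39 in Ca9-22. The level in HSC-3 was far below that of the other lines, so signals of the 2 siRNAs overlapped across lines but not within any line. On the log2 scale the mean change was -1.05 ± 0.39 (adjusted p = 0.0481), and that in Ca9-22 was -0.62. With normexp background correction PRMT6 was no longer called (-0.79, adjusted p = 0.0595). The SD of the log2 signal among the 10 spots was 0.06 to 0.19, below the change in each line, and covers error within an array only. PRMT1, which makes most of the asymmetric dimethylarginine of the cell, had probes at -0.49 and -0.36, lower in every line. PRMT2 had 3 probes at -0.57, -0.45 and -0.37, and PRMT10 stood at -0.40. PRMT5, the main enzyme of symmetric dimethylation, was the highest of the class at 0.14 ± 0.21 and 0.07 ± 0.11. None of these passed the test.

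Of the flavin-dependent demethylases, KDM1B, which removes methyl groups from H3K4, had low signals and was dim on most siDLEU1-2 arrays. The probe at chr6:18223320-18223380 read 0.139, 0.119 and 0.245 after siCtrl and was dim on each siDLEU1-2 array, which gives at least 1.76-fold lower (adjusted p = 0.0227, from dim siDLEU1-2 values). The probe at chr6:18222571-18222630 went from 0.207 to 0.106, from 0.0931 to 0.0384 and from 0.151 to 0.0439, and only 1 of its siDLEU1-2 arrays, HSC-3, was well above background. In HSC-3 its log2 fold change was -0.97, and in KON and Ca9-22 it was at least 1.07-fold and 1.47-fold lower (adjusted p = 0.0334, from partly dim values). Both KDM1B calls depended on how dim signal was handled: with normexp background correction the means were -0.44 and -0.32 (adjusted p = 0.0706 and 0.114), and with dim values set to the detection floor -0.81 and -0.54 (adjusted p = 0.0701 and 0.166). KDM1A (LSD1), the demethylase of the CoREST complex, was the highest of all member probes. Its probe went from 2.03 to 11.4 in HSC-3, from 2.46 to 6.44 in KON, and from 9.71 to 14.9 in Ca9-22. The log2 fold changes of 2.48, 1.39 and 0.62 were all positive but spread widely, and the mean of 1.50 ± 0.94 did not pass the test (adjusted p = 0.0791). KDM1A was highest after siCtrl in Ca9-22, the line with the smallest change.

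None of the 15 tested probes of the JmjC demethylases passed the test. KDM4C, which demethylates H3K9 and H3K36, was the lowest. Its 10-spot probe went from 3.38 to 2.27, from 1.54 to 0.839 and from 0.466 to 0.365, a mean of -0.60 ± 0.26 (adjusted p = 0.0925). KDM2A was even across lines at -0.51 ± 0.04 (adjusted p = 0.0833) and was called lower with normexp background correction, and KDM4A at -0.42 ± 0.09 (adjusted p = 0.126). KDM5B, an H3K4 demethylase, gave the closest match between probes, at -0.48 ± 0.14 and -0.47 ± 0.14 with all lines lower. At the upper end, KDM6A, the X-linked H3K27 demethylase, had probes at 0.58 ± 0.80 and 0.29 ± 0.46. Both were higher in HSC-3 and Ca9-22 and lower in KON. Its relative KDM6B showed the same signs, at 0.56, -0.42 and 0.33 in HSC-3, KON and Ca9-22.

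**Figure D5:**
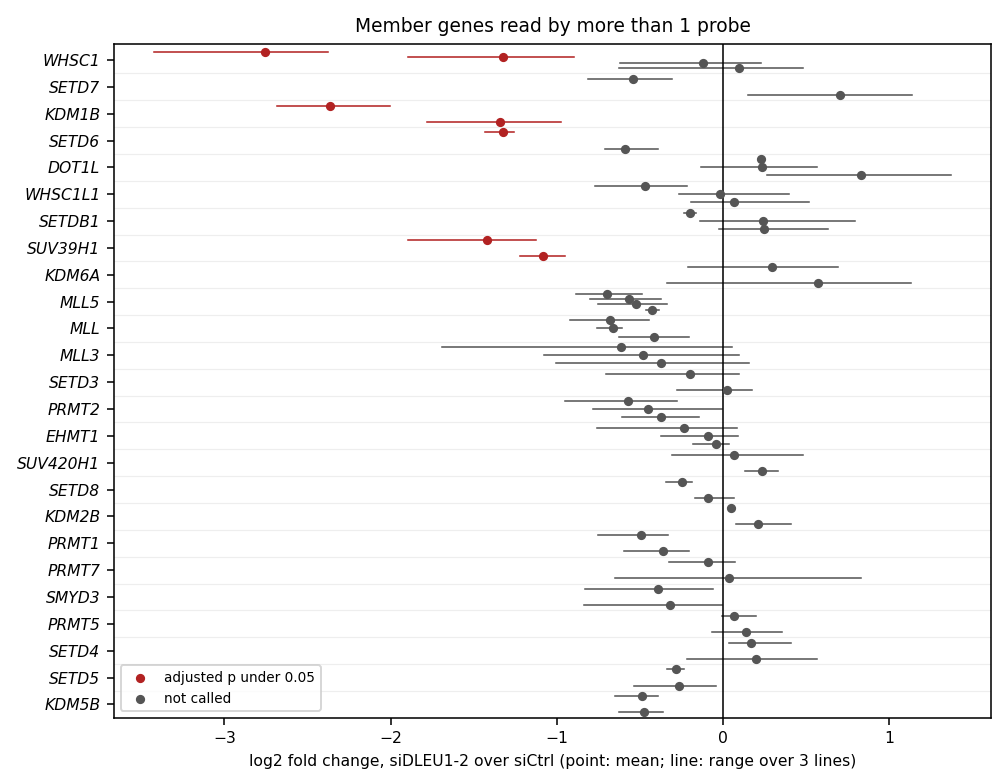
Mean log2 fold change (points) and range over the 3 lines (bars) of every tested probe of the 25 genes with more than 1, ordered by the gap between the lowest and highest probe of a gene. Red marks an adjusted p under 0.05. WHSC1 and SETD7 have the widest gaps with opposite signs, and KDM5B and SETD5, near the bottom, have nearly equal probes. The lower KDM1B and SUV39H1 probes were dim on each siDLEU1-2 array, and the other KDM1B probe on those of KON and Ca9-22, so their points are not exact and the bounds given in the text hold.

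Across the 25 genes with more than 1 tested probe (61 probes), the probe means were all below 0 in 13 genes, all above 0 in 6 and of both signs in 6. The gap between the lowest and highest probe of a gene had a median of 0.22 and was under 0.3 in 17 genes. The probes of 5 genes disagreed by the rule used, which asks for means of opposite sign more than 1 apart, or for 1 probe past a threshold and another not. These were WHSC1, SETD7, SETD6, KDM1B and SUV39H1. In KDM1B and SUV39H1 both probes were called lower, and the disagreement is that the measured values of 1 probe of each passed 2-fold in all lines. Those probes were dim on every siDLEU1-2 array, with bounds of 1.36-fold to 2.39-fold and 1.52-fold to 2.18-fold by line, so a difference in size is not shown for these genes.

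Levels of the members differed between the lines themselves. Among the 83 member probes well above background on all arrays, the brightest siCtrl array exceeded the dimmest by a median of 1.84-fold, by over 2-fold for 32 probes and by over 4-fold for 8. PRMT6 had the widest range, 16.4-fold between KON and HSC-3, followed by SETD7 (7.42-fold for the probe assigned to BC066361, brightest in KON) and KDM4C (7.25-fold, brightest in HSC-3). Each of these rests on 1 array per line and has no error.

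Genes that work with the members were examined as lists. Of 42 probes for partner subunits of the methyltransferase and demethylase complexes, 1 rose and 2 fell (7.14% called, against 8.50% of all probes kept). RCOR2, a CoREST family protein that binds KDM1A, rose by 1.77 ± 0.17 on the log2 scale (adjusted p = 0.0231), while 1 probe of its paralog RCOR3 stood at -1.72 ± 0.25 (adjusted p = 0.0247) and the other at -0.85 ± 0.73 (adjusted p = 0.153). SUZ12, the PRC2 subunit that EZH1 and EZH2 need, fell by 0.81 ± 0.14 (adjusted p = 0.0421). Of 27 probes for related enzymes outside the families above, 1 was called higher and 3 lower (14.8%). FBXO11, whose place among such enzymes was not tested, had the higher one at 0.85 ± 0.22 and a second, not called, at 0.42 ± 0.32. METTL21A, a methyltransferase of HSP70 proteins, had probes called lower at -2.18 ± 0.46 and -1.18 ± 0.28 and another, not called, at 0.39 ± 0.45. The PRDM8 probe called lower was well above background on 4 of 6 arrays, and no size is given for it. Of 21 probes for methyl donor metabolism, 2 rose and 2 fell (19.0%). MTR, methionine synthase, was lower at both probes (-0.89 ± 0.09 and -1.21 ± 0.14), and MTAP, which salvages methionine, and MTHFD2, a mitochondrial folate enzyme, were called higher at 1 probe each (1.47 ± 0.45 and 0.81 ± 0.09). The other MTAP probes, at 0.75 and 0.67, were not called.

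Among all kept probes that hold the 7-base seed match, 19 of 57 (33.3%) were called lower and 4 higher, against 4.52% and 3.98% of all probes kept. Of the 189 that hold the 6-base match without the seventh base, 20 (10.6%) were called lower and 7 higher. The SMYD2 and printed WHSC1 probes are of the first kind and the SETD6 probe is of the other. The ASH1L, PRMT6, SUV39H1, KDM1B and first WHSC1 probes hold neither.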

How the data were processed

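Per the file headers, the authors' scanner files come from Agilent Feature Extraction 10.7.3.1 and a design on hg19. The deposited processed signal is a spot intensity on a linear scale after background subtraction, not normalized between arrays, and the deposited flags (outlier, saturated, well above background) are of another kind and were used to select spots. The authors' series table repeats this intensity (largest difference 0.497%) and served as an alternative. The paper names GeneSpring GX, and its normalization is not given in the sources used here.

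The log2 intensity minus the 75th percentile of each array was used, after control and outlier spots were left out and spots of a probe averaged. Of 50599 probes, 55 lacked a usable spot on some array. No spot was saturated and all arrays were on 1 slide. The 19956 probes well above background (at least 50% of spots) on 1 or more arrays of every line were fitted with limma 3.58.1 in R 4.3.3 (lmFit, eBayes; siRNA and cell line as terms), with Benjamini-Hochberg adjustment over all of them and a threshold of 0.05. Both arrays of a pair come from 1 cell line, and deviations from the siRNA means correlated at 0.83 (HSC-3), 0.81 (KON) and 0.82 (Ca9-22). The number of arrays limits the precision. No permutation test is given for single probes, since sign flips of 3 lines allow no two-sided p under 0.25.

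The members, gene lists and tests were chosen with earlier results of these data known. Genes named were SMYD2, SETD6 and KDM1B (named in the study's text on these arrays), every member called or over 2-fold in all lines with all its probes, the highest and lowest gene of each class, genes with disagreeing probes, and called genes of the other lists. Further members are given to account for their class and were chosen after their values were seen. The levels of 1 member gene on the Y chromosome are not given. By transcript accession, 55 of 56 genes matched the RefSeq gene table of GRCh38.p14, used for names only. The place of probes on the proteins was not analysed here. The siRNA sequence is from the study's supplementary list, and probe sequences are from the scanner files.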

Additional observations from a re-analysis of the deposited data

How the results depend on the processing

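No member probe was called higher under any alternative, and the member median stayed below 0 in all of them. The count of 10 probes called lower dropped to 0 without a filter on dim probes, to 0 with no replicate block and to 0 with the methods' t-test (9 at an unadjusted p under 0.05 in either of the last pair). Of all probes tested, 0 were called under these 3 settings too, and without the filter the fold changes were the same (SMYD2 -2.32, adjusted p = 0.141, with 50544 probes tested). The count was 6 of 53 genes with the mean of the probes of a gene, against 665 of all 15281 genes. Both arrays of a pair share a cell line, so the fit with the block is the one reported. With a line left out the count was 0 to 3. Under the other scalings, filters and the series table it was 9 to 11 (898 to 1177 over all probes tested, against 902). MLL was called under 4 of these settings. With normexp, 6 of the 9 calls were shared with the reported fit, and MLL, KDM2A and NSD1 were gained. The 5 probes over 2-fold lower in all lines became 2 with normexp background correction, 3 with probes well above background on all 6 arrays, 3 with dim values at the detection floor, 3 with a 3-fold threshold and 3 genes with the mean of the probes of a gene, and 6 to 8 with a line left out. Over all probes tested the count moved too. In the same order, 416 became 181, 289 (of 18094), 360, 113 and 323 genes (of 15281), and 607 to 641 with a line left out. No member probe was over 2-fold higher except 1 when Ca9-22 was left out (0 to 1 over the lines left out). The member median of -0.22 was -0.29 with the median of each array (all probes kept -0.06), -0.16 with normexp and -0.17 with the mean of the probes of a gene, and -0.26 to -0.18 with a line left out. Besides KDM1B, normexp ended the calls of PRMT6 (-0.79, adjusted p = 0.0595) and the dim SUV39H1 probe (-0.30, adjusted p = 0.145). MLL5 was called among probes well above background on all 6 arrays (adjusted p = 0.0458). The normexp correction added an offset of 50 to each signal, while the 75th percentile of the background-subtracted signal was 200 to 257. Adding a constant makes log2 fold changes smaller, most of all for dim probes, so normexp is not a neutral check on them. How much of each normexp shift came from the offset was not tested, and neither was the cause of the other shifts.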
